A study of Mus musculus with 36 samples.

Results

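In 129X1/SvJ (129X1) mice with a ligated left carotid artery, 7 days of sacubitril/valsartan was compared with 7 days of vehicle across every expressed gene. The comparison used 6 of the 36 RNA sequencing libraries of the study: 3 from mice given sacubitril/valsartan at 60 mg/kg/day and 3 from mice given vehicle at 2 mL/kg/day. Both groups were of 1 strain, had the same artery ligated, started dosing 7 days after ligation and gave their arteries 14 days after ligation, so every vehicle library also came from an injured vessel. Of 49568 gene symbols in the count table, 18628 had enough counts to be tested, and 12376 of those reached a mean of 5 CPM in the 6 libraries. CPM is the counts-per-million level of a gene in its library, after scaling of the total for composition.

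The other 30 libraries were used to estimate the spread between mice and, for some groups, as points of reference: 129X1 mice given valsartan alone at 27 mg/kg/day on the same late schedule, C57BL/6 (B6) mice given sacubitril/valsartan or vehicle on that schedule, and 129X1 mice given either from 2 days before ligation. The labels name 12 randomised groups of 3 mice and give neither age nor sex. Replicate numbers here only follow the order of deposition. With 3 libraries per group, the edgeR p-values rest on a spread estimated within all 12 groups together, not within the 6 libraries alone. Ligation stops flow in the vessel without removing its endothelium, and no unligated artery was compared.

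Sacubitril/valsartan joins a prodrug whose active form blocks neprilysin, encoded by Mme, with a blocker of the angiotensin II type 1 receptor, encoded in the mouse by Agtr1a and Agtr1b. Neprilysin is a membrane peptidase that degrades natriuretic peptides, bradykinin, adrenomedullin, endothelin and other small peptides, and the natriuretic peptides act through guanylyl cyclase receptors to raise cGMP in smooth muscle. In a ligated carotid artery smooth muscle cells leave their contractile state, proliferate and lay down matrix, while macrophages and other leukocytes enter the wall.

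No gene passed the test for a difference between the 2 groups. By edgeR's quasi-likelihood test with Benjamini-Hochberg adjustment, 0 of 18628 genes passed an adjusted p of 0.05 (0%), and the smallest adjusted p was 1. At an unadjusted p under 0.05 there were 101 genes (0.542%), 46 higher (0.247%) and 55 lower (0.295%) with sacubitril/valsartan. Of the 101, 81 lay below 5 CPM. DESeq2 also called 0 genes, with 98 at an unadjusted p under 0.05. limma's voom with sample weights called 1, the predicted gene Gm43138, which was lower, with 3214 of 18628 at an unadjusted p under 0.05. Without any difference, a share of about 0.05 of the genes would on average fall under that bound. The edgeR and DESeq2 counts were below that share and the voom count was above it, and the reason was not tested. The 0 calls by edgeR therefore do not show that the groups were alike. The log2 difference, sacubitril/valsartan minus vehicle, was within 0.5 of 0 for 96.1% of the 12376 genes at or above 5 CPM.

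The precision of the comparison varied by gene. At or above 5 CPM the 95% interval of the log2 difference had a median half-width of 0.556. For 9315 of these genes (75.3%) the whole interval lay within 1 log2 unit of 0, so differences beyond 2-fold fell outside it, and for 4879 (39.4%) it lay within 1.5-fold. For the remaining genes the interval did not exclude a 2-fold difference.

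**Figure D1:**
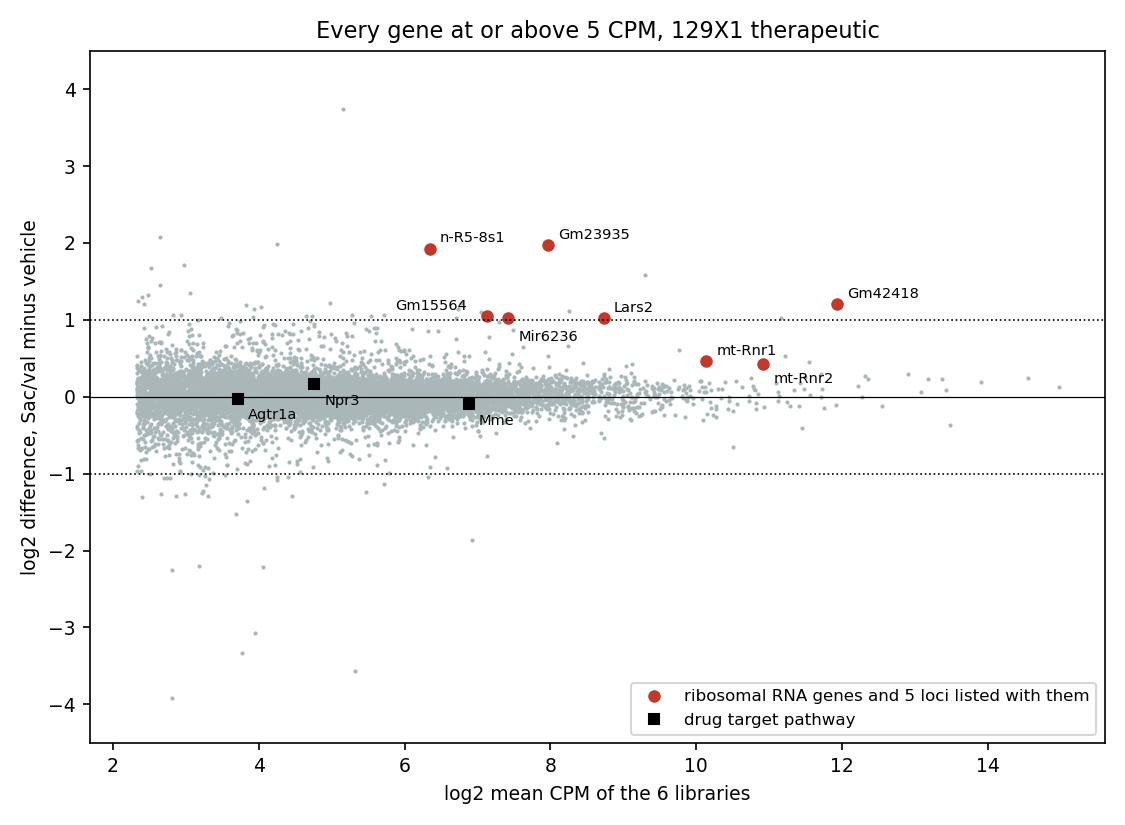
Log2 difference of sacubitril/valsartan minus vehicle (vertical) against the log2 mean CPM of the 6 libraries (horizontal); each grey point is 1 of 12374 genes at or above 5 CPM, and 2 genes beyond 4.5 log2 units (Gp2 and Ighv1-54) lie outside the axis. Red circles are ribosomal RNA genes and 5 loci listed with them, black squares are Mme, Agtr1a and Npr3, and the dotted lines mark 1 log2 unit; 74 genes, those 2 included, lie at or beyond them.

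Among the drug's own targets, Mme was measured at 105, 95.6 and 141 CPM with sacubitril/valsartan and at 142, 86.9 and 136 CPM with vehicle. The groups overlapped, with a log2 difference of -0.10 ± 0.43 (SE, n = 3 per group) and a 95% interval from -0.99 to 0.79. This SE and those below come from the fit to all 36 libraries. Agtr1a, the receptor that valsartan blocks, was at 13.7, 14.3 and 10.9 CPM with sacubitril/valsartan and at 12.1, 13.5 and 14.0 CPM with vehicle. Its log2 difference was -0.02 ± 0.36 and its interval ran from -0.76 to 0.71. Agtr1b was too low to test, at or below 0.179 CPM in these 6 libraries.

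The renin-angiotensin list held 15 genes, of which 13 were tested, and 0 of the 13 passed the test. Its median log2 difference was -0.04, beside 0.02 over all genes tested. Ace, which makes angiotensin II, was at 286, 167 and 324 CPM with sacubitril/valsartan against 212, 326 and 196 CPM with vehicle. Enpep, the aminopeptidase that shortens angiotensin II, was at 17.4, 17.2 and 14.6 CPM against 18.7, 20.4 and 19.3 CPM. It was the gene of this list whose groups did not overlap, with the drug libraries lower, and the difference of -0.25 ± 0.24 log2 units was about the size of its standard error. Across all genes tested, 169 (0.907%) had all drug libraries below all vehicle libraries and 297 (1.59%) had them above. The precursor Agt was near 2 to 3 CPM in all 6 libraries, between 2.07 and 3.27 CPM.

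In the natriuretic peptide and cGMP list 17 of 21 genes were tested, 0 passed, and the median log2 difference was -0.13. The ligands were scarce in the wall: Nppa had no count in the 6 libraries, Nppb was at 0 in 4 of them, and Nppc did not exceed 0.465 CPM. The guanylyl cyclase receptor Npr1 was at 102, 58.1 and 112 CPM with sacubitril/valsartan and at 99.3, 134 and 76.2 CPM with vehicle. The groups overlapped, with a log2 difference of -0.19 and an interval from -0.87 to 0.49.

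Npr2, the receptor for C-type natriuretic peptide, differed by -0.10 log2 units with an interval from -0.79 to 0.58. Npr3, the clearance receptor, was at 23.0, 16.0 and 46.8 CPM with sacubitril/valsartan and at 32.4, 17.8 and 26.3 CPM with vehicle. One drug library, replicate 3, was higher than the other 5 and the remaining values were mixed, for a log2 difference of 0.17 ± 0.44; without that library it was -0.39. Downstream, the soluble guanylyl cyclase subunit Gucy1b3 was at 21.1, 21.8 and 18.5 CPM against 22.1, 29.4 and 25.4 CPM, a log2 difference of -0.32 ± 0.39 with no overlap between groups. The cGMP-degrading phosphodiesterase Pde5a differed by 0.10 log2 units.

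Of 29 genes for neprilysin and its peptide substrates with their receptors, 28 were tested and 0 passed, with a median log2 difference of -0.06. Edn1 (endothelin) differed by 0.21 log2 units, its receptors Ednra and Ednrb by 0.17 and 0.03, adrenomedullin (Adm) by 0.13 and its receptor Calcrl by -0.12. The groups of each of these 5 genes overlapped. The largest difference in the list was in Calca, which encodes calcitonin and calcitonin gene-related peptide. It was at 1.39, 2.08 and 18.7 CPM with sacubitril/valsartan and at 0.693, 0.716 and 2.62 CPM with vehicle, and without sacubitril/valsartan replicate 3 the log2 difference went from 2.45 to 0.36. That library also held the most thyroglobulin (Tg), 9287 CPM. Calcitonin is a product of thyroid C cells, and the part of thyroid tissue in the Calca value was not tested.

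**Figure D2:**
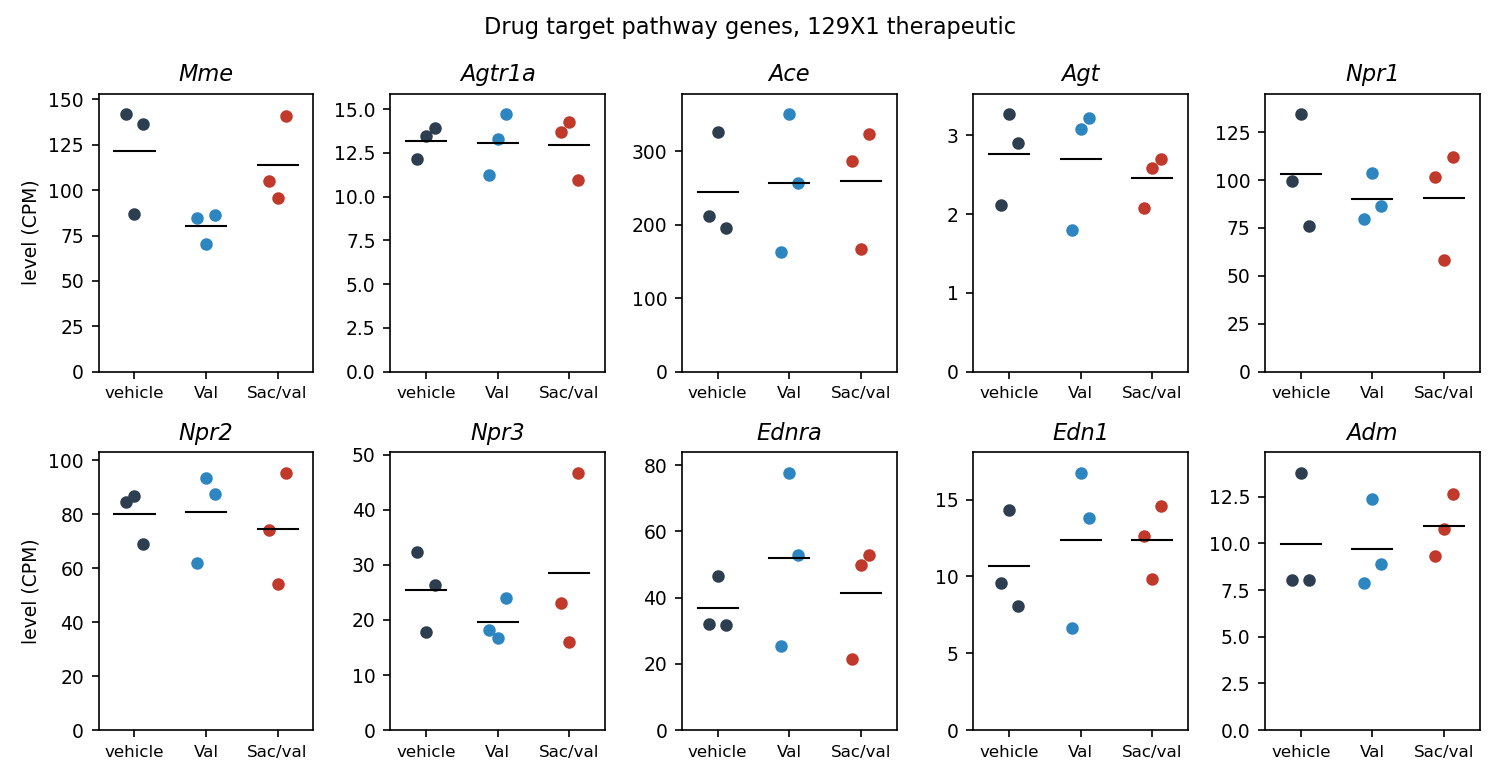
Level in CPM (vertical axes from 0) of 10 genes of the angiotensin, natriuretic peptide, endothelin and adrenomedullin pathways in the 129X1 therapeutic libraries given vehicle, valsartan (Val) or sacubitril/valsartan (Sac/val). Points are libraries and bars are the means of 3; the 3 vehicle and 3 sacubitril/valsartan points overlap in each of the 10 panels.

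Valsartan alone, on the same schedule, gave 84.4, 70.6 and 86.1 CPM of Mme, below all 6 other libraries. The log2 difference was -0.60 for valsartan minus vehicle and 0.50 for sacubitril/valsartan minus valsartan, and neither passed the test. Between sacubitril/valsartan and valsartan, which differ by the neprilysin inhibitor and in mg/kg given, edgeR called 0 of 18628 genes (0%), with 142 at an unadjusted p under 0.05 (0.762%). DESeq2 called 1 gene there. Valsartan minus vehicle, which shares the vehicle libraries, also had 0 genes called by edgeR (0%), with 468 at an unadjusted p under 0.05 (2.51%). Predicted or unnamed genes aside, those of smallest p at or above 5 CPM between the 2 drugs were Ighd, Agap3 and Hipk2. Ighd is an immunoglobulin heavy-chain constant region. Agap3 was at 64.0, 65.5 and 58.6 CPM with sacubitril/valsartan, at 81.0, 82.0 and 77.9 CPM with valsartan and at 66.4, 65.7 and 60.2 CPM with vehicle.

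The tissue content of the libraries has to be read beside every gene group that follows. Markers of the arterial wall were present in each library: the smooth muscle myosin Myh11 was at 365, 270 and 176 CPM with sacubitril/valsartan and at 293, 536 and 106 CPM with vehicle. The endothelial adhesion molecule Pecam1 ranged from 159 to 273 CPM. Markers of neighbouring neck tissues varied far more within both groups. In bulk tissue, fewer cells of a type and less RNA per cell cannot be told apart.

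The thymocyte recombinase Rag1 was at 225, 305 and 0.0931 CPM with sacubitril/valsartan and at 84.5, 0.940 and 368 CPM with vehicle. Tg was at 1.27, 1.27 and 9287 CPM against 1.26, 3254 and 1292 CPM. Parathyroid hormone (Pth) was at 5129, 3330 and 0.605 CPM against 0.652, 5762 and 88.1 CPM. So 2 of 3 drug libraries and 2 of 3 vehicle libraries carried thymus transcripts at 10 CPM of Rag1 or more, and thyroid and parathyroid transcripts were likewise split within both groups.

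All 22 skeletal muscle genes listed were tested. Their summed level was 78.6, 2859 and 56235 CPM with sacubitril/valsartan and 34455, 8347 and 24465 CPM with vehicle. Sacubitril/valsartan replicate 1 was thus nearly free of muscle transcripts and replicate 3 had the most of the 6. The 14 thymus genes summed to between 1235 and 2759 CPM with the drug and to between 892 and 2355 CPM with vehicle. That sum understates the spread between libraries. By replicate, the mean log2 CPM of the 14 genes was 6.18, 6.15 and -0.08 with the drug. With vehicle it was 4.80, 1.59 and 6.05. The 14 thyroid and parathyroid genes summed to between 3358 and 9442 CPM with the drug and between 10.0 and 9146 CPM with vehicle. Every gene of these 3 lists had a count in at least 1 of the 6 libraries. Pearson's r between libraries across genes ran from 0.899 to 0.968 within the drug group, from 0.924 to 0.973 within the vehicle group and from 0.931 to 0.970 between them, so the ranges within and between groups overlapped. Total counts per library were 19592643 to 27084204.

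**Figure D3:**
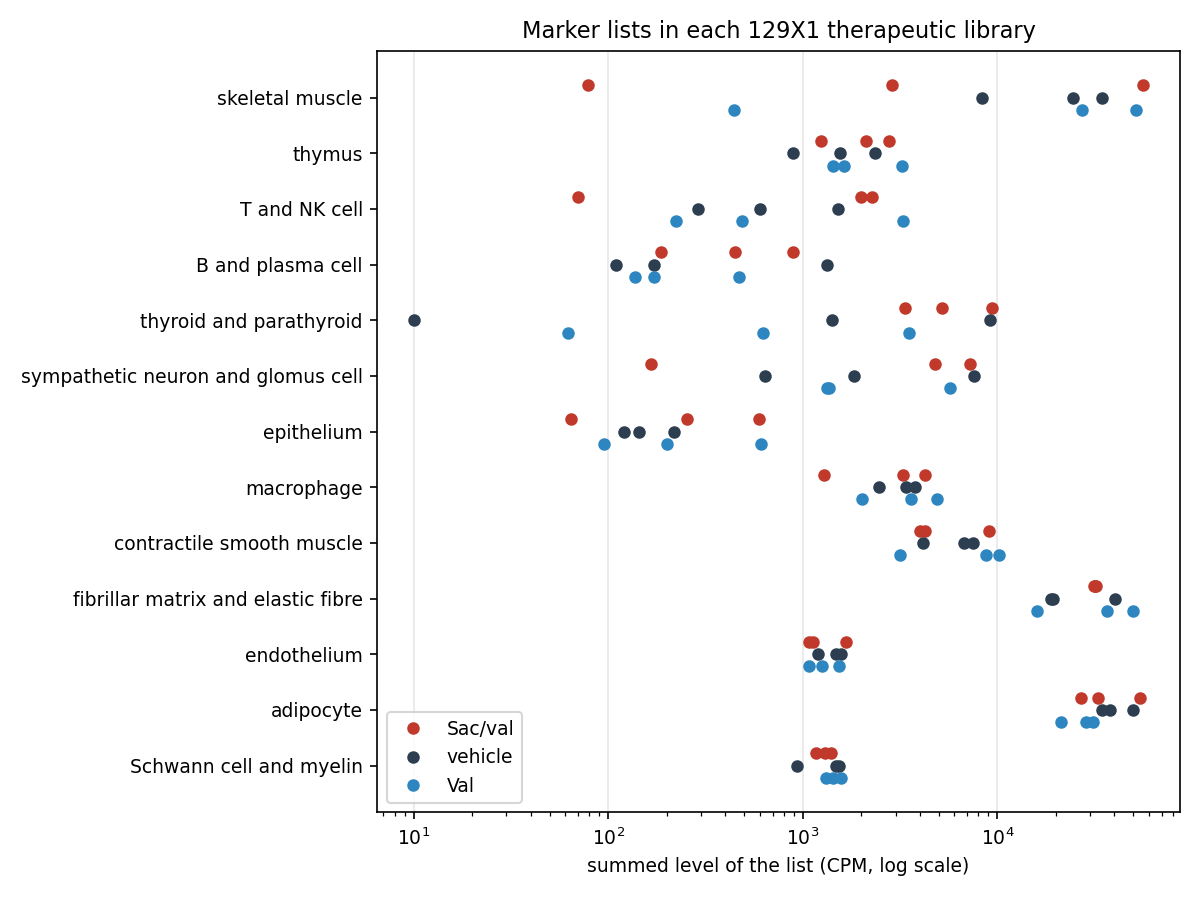
Summed CPM (log axis) of 13 marker lists (rows) in each 129X1 therapeutic library; red points are sacubitril/valsartan, dark points vehicle and blue points valsartan, 3 libraries each. The skeletal muscle sum spans 78.6 to 56235 CPM within the sacubitril/valsartan group, whereas the endothelium sum spans 1079 to 1663 CPM.

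No contractile smooth muscle gene passed the test. All 25 were tested, and the median log2 difference was -0.06, with 8 positive and 17 negative values. Acta2, the smooth muscle actin, was at 720, 562 and 202 CPM with sacubitril/valsartan and at 384, 847 and 111 CPM with vehicle. In both groups replicate 3 was the lowest library, for a log2 difference of 0.14 ± 0.78. Tpm1 and Tpm2, the tropomyosins shared with skeletal muscle, were at 195 and 140 CPM in sacubitril/valsartan replicate 1 and at 2652 and 1892 CPM in replicate 3, and both were ordered over the 6 libraries as the skeletal muscle sum was. The part of skeletal muscle in those values was not tested.

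Of the 18 genes of modulated smooth muscle, 17 had a positive difference and 0 passed the test, with a median of 0.24 log2 units. The median was 0.51 without vehicle replicate 2 and 0.07 without vehicle replicate 3. For valsartan minus the same vehicle libraries the median of the list was 0.29, and for sacubitril/valsartan minus valsartan it was -0.15. Cthrc1, a secreted protein of remodelling arteries, was at 43.4, 38.6 and 25.3 CPM with sacubitril/valsartan and at 10.2, 31.6 and 10.1 CPM with vehicle. Vehicle replicate 2 lay among the drug libraries and the other 2 vehicle libraries below them, and the log2 difference was 1.05 with an interval from -0.55 to 2.65. Postn (periostin, a matricellular protein) was at 1265, 961 and 927 CPM against 438, 1214 and 412 CPM, in the same pattern. Its log2 difference was 0.61 and its interval ran from -0.62 to 1.84. Osteopontin (Spp1) was at 99.2, 1676 and 1724 CPM against 1317, 1094 and 797 CPM, with sacubitril/valsartan replicate 1 more than 8-fold below vehicle replicate 3.

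The 31 genes of fibrillar matrix and elastic fibres behaved alike: 28 differences were positive, 0 passed, and the median was 0.23 log2 units. Col3a1 was at 7976, 8111 and 9390 CPM with sacubitril/valsartan and at 4895, 10397 and 5390 CPM with vehicle. Col1a2 was at 5277, 5725 and 5963 CPM against 3468, 7531 and 3512 CPM. For both collagens the drug libraries lay together, between a high vehicle replicate 2 and 2 lower vehicle libraries. Without vehicle replicate 2 the median of the list was 0.59, and without vehicle replicate 3 it was 0.06. Over 15 alternative runs it ranged from -0.18 to 0.59 and kept its sign in 13. For valsartan minus the same vehicle libraries the median of the list was 0.35, and for sacubitril/valsartan minus valsartan it was -0.07.

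Loxl2, a collagen cross-linking oxidase, was the 1 gene of this list of 31 whose groups did not overlap. Of all 18628 genes tested, 297 (1.59%) had all drug libraries above all vehicle libraries. Loxl2 was at 99.5, 92.2 and 97.0 CPM with sacubitril/valsartan and at 65.1, 85.2 and 50.3 CPM with vehicle, a log2 difference of 0.53 ± 0.61. Elastin (Eln) had the largest difference of the list, 1.59 log2 units, from 2384, 264 and 193 CPM against 271, 545 and 130 CPM. Sacubitril/valsartan replicate 1 alone set that value, which was -0.46 without it. Among 23 TGF-beta ligands, receptors and targets the median was 0.06, and among 16 basement membrane genes it was -0.05; 0 genes of either list passed.

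**Figure D4:**
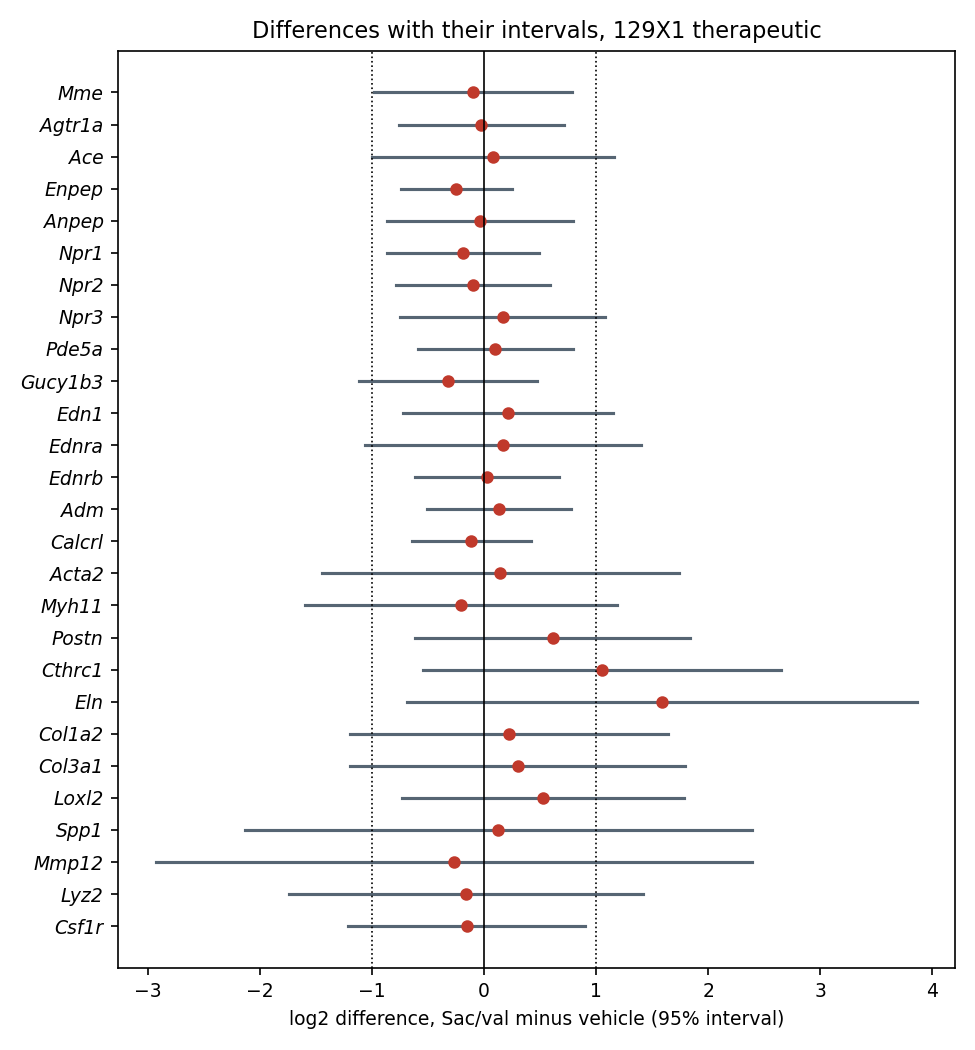
Log2 difference of sacubitril/valsartan minus vehicle (points) with its 95% interval (lines) for 27 genes of the drug's pathways, smooth muscle, matrix and macrophages; dotted lines mark 1 log2 unit. Every interval includes 0, and those of Eln, Spp1 and Mmp12 are several times as wide as those of Enpep and Calcrl.

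Macrophage genes gave a median of -0.05 log2 units, with 9 of 20 positive and 0 past the test. Lyz2 (lysozyme) was at 469, 2031 and 2622 CPM with sacubitril/valsartan and at 2104, 2232 and 1387 CPM with vehicle. Mmp12, the macrophage elastase, was at 7.23, 1101 and 1391 CPM against 1246, 979 and 784 CPM. Sacubitril/valsartan replicate 1, the library with the most elastin transcript, was far below the other 5 in Mmp12, and the other 2 drug libraries were within or above the vehicle range. The log2 difference of Mmp12 was -0.27 with replicate 1 and 0.31 without it. Csf1r, the receptor that marks macrophages, varied less, from 139 to 245 CPM.

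Among 26 cytokines, chemokines and adhesion molecules 25 were tested, 0 passed, and the median was 0.05. Of 13 neutrophil genes tested, 0 passed and 11 were positive, with a median of 0.43 that ranged from 0.02 to 0.87 with a library left out. The granule genes Ltf, Ngp and Camp had unadjusted p-values of 0.0254, 0.0390 and 0.0443 by edgeR, in values below 6 CPM. The 20 endothelial genes had a median of -0.14, with 16 negative; Vwf (von Willebrand factor) was at 101, 70.9 and 154 CPM against 162, 135 and 148 CPM. The 19 T and NK cell genes had a median of 0.61, the 14 thymus genes of 0.58 and the 18 cell cycle genes of 0.64, all 18 positive, and 0 genes of these lists passed. The proliferation marker Mki67 was at 118, 124 and 11.5 CPM with sacubitril/valsartan and at 47.4, 21.7 and 165 CPM with vehicle, in the same order over the 6 libraries as Rag1. Without the libraries at 10 CPM or more of Rag1, which leaves 1 library per group, the median of the cell cycle list was -0.88. The part of thymus in the cell cycle values was not tested.

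The 39 lists together held 688 tested genes. Of these, 0 passed and 4 had an unadjusted p under 0.05, beside 0.542% of all genes tested. The median difference was positive in 22 lists and negative in 17, and in 31 lists it was within 0.25 log2 units of 0. The B and plasma cell list had a median of -0.53 with 14 of 15 negative, and without vehicle replicate 2, which had 35.2 CPM of the B cell antigen Ms4a1, the median was 2.63.

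At or above 5 CPM the genes with an unadjusted p under 0.05 by edgeR were 16 in the higher and 4 in the lower direction. Predicted or unnamed genes were counted there but left out of the 10 named per direction. They include Gm23935, higher, and Gm20721, lower, with unadjusted p of 0.0140 and 0.0343 by edgeR, both described below. The 10 named in the higher direction by the smallest p were Klf10, Akip1, Bloc1s4, Scand1, Wdr53, Tmem97, Zfp787, Klhl15, Taf10 and Dcun1d5, with log2 differences from 0.25 to 0.40. Klf10, a transcription factor induced early by TGF-beta (chr15:38291463-38300706, minus strand, GRCm38), was at 60.2, 59.3 and 72.1 CPM with sacubitril/valsartan and at 51.3, 39.6 and 56.4 CPM with vehicle. All drug libraries were above all vehicle libraries, and the log2 difference was 0.38 ± 0.16. Valsartan alone gave 64.2, 64.5 and 57.7 CPM, so both drug groups lay above vehicle, but the 2 comparisons share the vehicle libraries. Wdr53 (10.3, 12.5 and 9.58 against 8.60, 8.77 and 8.68 CPM) and Zfp787 (22.9, 25.0 and 23.3 against 19.9, 20.9 and 18.2 CPM) also had groups that did not overlap.

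In the lower direction Ighv1-54 and Tnnc1 came first, each through 1 vehicle library. Ighv1-54, an immunoglobulin variable segment, was at 37.2 CPM in vehicle replicate 2 and at or below 0.0423 CPM in the other 5. Tnnc1, the slow-twitch and cardiac troponin C, was at 32.6 CPM in vehicle replicate 1 and between 0.930 and 4.23 CPM in the others. The next named were Zfp365, Kit, Zbtb21, Atp2a2, Mapkbp1, Afap1, Bahcc1 and Htt. From Kit on, 7 of the 10 named, the unadjusted p by edgeR was above 0.05. Kit, the stem cell factor receptor, was at 11.4, 10.2 and 12.5 CPM against 13.4, 13.7 and 17.7 CPM, with no overlap and a log2 difference of -0.39 ± 0.19. It was the lowest of the 11 mast cell genes, of which 8 had a positive difference, with a median of 0.16. Zfp365 was at 4.90, 3.40 and 3.58 CPM against 5.67, 6.54 and 6.59 CPM, a log2 difference of -0.66 ± 0.30. The adjusted p of each of these 20 genes was 1 by edgeR.

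Of the 12376 genes at or above 5 CPM, 150 had all drug libraries above all vehicle libraries and 41 had them below. That split followed the scaling: with DESeq2's size factors it was 87 and 56, and with total counts 34 and 102.

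Of the 74 genes at or above 5 CPM that differed by at least 1 log2 unit, 8 had groups that did not overlap. Over all 12376 genes at that level, 150 did not overlap in the higher and 41 in the lower direction. Among the 8 were the 6 features Gm42418, Gm23935, Gm15564, Mir6236, Lars2 and n-R5-8s1. They were singled out after their values were seen, and none passed the test. n-R5-8s1 is annotated as 5.8S ribosomal RNA. Gm42418 (chr17:39846958-39848788, plus strand, GRCm38, GENCODE M21, annotated as a lincRNA) lies at the chromosome 17 copy of the ribosomal RNA repeat. Gm23935 (chr16:11144125-11144181, plus strand) is annotated as a microRNA gene within Zc3h7a, on the opposite strand and outside its exons. Mir6236 is at chr9:110281287-110281409 on the plus strand, Lars2, which encodes the mitochondrial leucyl-tRNA synthetase, at chr9:123366927-123462666 on the plus strand, and the antisense gene Gm15564 at chr16:35966752-35983230 on the minus strand.

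The mature microRNA of 1 of these genes and the whole transcript of another are shown because both genes are annotated as microRNAs. The mature miR-6236 (RefSeq, GRCm38.p6, chr9:110281353-110281371, plus strand) is 19 of the 123 bases of the counted Mir6236 transcript and has its seed, bases 2 to 8, in capitals, and the 57-base transcript of Gm23935 is from GENCODE M21.
mmu-miR-6236: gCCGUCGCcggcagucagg
Gm23935: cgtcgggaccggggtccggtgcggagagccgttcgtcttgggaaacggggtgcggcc
Both are rich in G and C, at 78.9% of 19 bases and 73.7% of 57 bases. The libraries were made from mRNA and not as small RNA libraries, so counts at these genes are not measurements of mature microRNA. Words of 20 bases were compared between the annotated transcripts of these 6 features, the mitochondrial ribosomal RNAs mt-Rnr1 and mt-Rnr2, and AY036118, a gene that overlaps Gm42418 on the other strand. Of 36 pairs, 1 shared words on the same strand, Gm15564 and Lars2, with 33 words. Reads lying within those stretches match both genes, and how they were counted was not tested. Gm42418 and AY036118 shared 904 words on opposite strands, and whether reads were counted by strand is not given in the sources used here.

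Gm23935 was at 278, 395 and 524 CPM with sacubitril/valsartan and at 77.6, 119 and 107 CPM with vehicle. Valsartan alone gave 136, 130 and 136 CPM. The lowest sacubitril/valsartan library was thus more than 2-fold above the highest of the other 6, and the log2 difference from vehicle was 1.98 ± 0.75, with an unadjusted p of 0.0140 and an adjusted p of 1 by edgeR. Gm42418 was at 3587, 4557 and 8206 CPM with sacubitril/valsartan, at 2080, 2721 and 2295 CPM with vehicle and at 2244, 2271 and 1763 CPM with valsartan. In both genes sacubitril/valsartan replicate 3 was the highest library and replicate 1 the lowest of its group.

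The others followed the same order. Lars2 was at 372, 472 and 862 CPM against 258, 303 and 279 CPM with vehicle, Gm15564 at 127, 157 and 285 CPM against 82.1, 96.3 and 96.1 CPM, and Mir6236 at 166, 198 and 324 CPM against 104, 128 and 107 CPM. n-R5-8s1 was at 45.1, 136 and 205 CPM against 37.7, 41.9 and 21.9 CPM. Their log2 differences were 1.02, 1.05, 1.02 and 1.93. Without sacubitril/valsartan replicate 3 the differences of Gm42418, Lars2, Gm15564 and Mir6236 were between 0.59 and 0.78, and those of Gm23935 and n-R5-8s1 were 1.73 and 1.42.

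The mitochondrial ribosomal RNAs mt-Rnr1 (chrM:70-1024) and mt-Rnr2 (chrM:1094-2675) also had groups that did not overlap, with smaller differences of 0.46 and 0.42 log2 units. mt-Rnr1 was at 1205, 1152 and 1567 CPM with sacubitril/valsartan and at 1042, 994 and 817 CPM with vehicle. Together the 8 features took 0.772% to 1.27% of all counts in the sacubitril/valsartan libraries, 0.503% to 0.613% with vehicle and 0.458% to 0.562% with valsartan. The 8 were chosen after their values were seen, so their separation from vehicle in these libraries is not a test. Gm26917, Rn7sk, Rpph1, Rmrp, Zc3h7a, mt-Co1, mt-Cytb and mt-Nd1 were looked at with them and are not among the 8. The log2 difference of Gm26917 was 0.39 to 0.81 over the alternative runs, and the values of the others are not given here. At or above 100 CPM, 16 of 1882 genes had groups that did not overlap (0.85%), and 7 of the 16 were among the 8. How much ribosomal RNA was left by the selection of mRNA in each library was not tested.

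In B6 mice on the late schedule the 8 features took 0.286% to 1.35% of counts with sacubitril/valsartan and 0.296% to 0.373% with vehicle, and in 129X1 mice dosed from before ligation they took 0.455% to 0.750% and 0.281% to 0.574%; the ranges of both pairs overlapped. With valsartan alone they took 0.530% to 0.934% in B6 mice on the late schedule and 0.634% to 0.696% in 129X1 mice dosed early, both above the vehicle range of the same strain and schedule. A range above that of vehicle was thus also seen in groups not given sacubitril/valsartan.

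**Figure D5:**
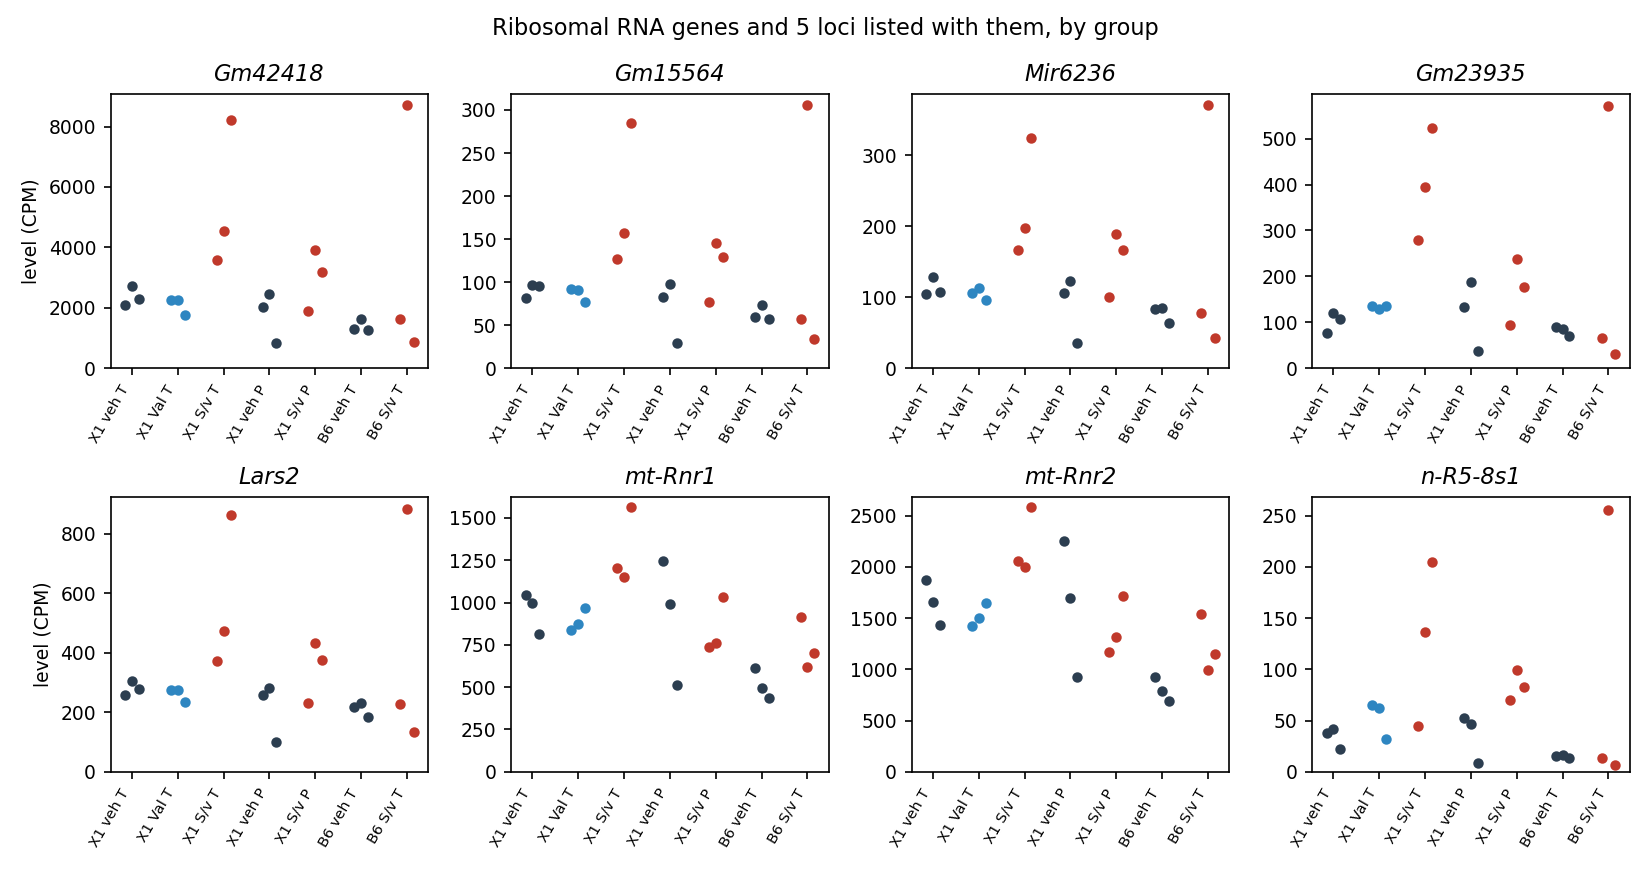
Level in CPM (vertical axes from 0) of the 8 features in 7 groups of 3 libraries: 129X1 (X1) therapeutic (T) vehicle, valsartan and sacubitril/valsartan (S/v), 129X1 prophylactic (P) vehicle and sacubitril/valsartan, and B6 therapeutic vehicle and sacubitril/valsartan. The 3 red points of the 129X1 therapeutic group lie above all its vehicle points for each feature and above all its valsartan points for each but n-R5-8s1, and 1 B6 sacubitril/valsartan library is higher still in all but the mitochondrial pair.

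The other 2 genes that differed by at least 1 log2 unit without overlap were Slc15a2, a peptide transporter, and the predicted gene Gm20721. Slc15a2 was at 43.3, 9.93 and 37.8 CPM with sacubitril/valsartan and at 8.72, 9.76 and 4.58 CPM with vehicle, so the second drug library was level with the vehicle libraries. Gm20721 was at 5.03, 4.92 and 3.95 CPM against 9.87, 8.37 and 15.3 CPM. They were likewise singled out after their values were seen, and the unadjusted p-values by edgeR were 0.0881 and 0.0343.

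Whether the drug difference depended on strain was tested directly as the interaction, 129X1 minus B6 on the late schedule. By edgeR 0 of 18628 genes passed (0%), the smallest adjusted p was 0.996, and 511 genes had an unadjusted p under 0.05 (2.74%). DESeq2 called 14 and limma's voom with sample weights 1603. Of the 1603, the drug difference was higher in 129X1 than in B6 for 1021 and lower for 582. Predicted or unnamed genes aside, the 3 genes of smallest edgeR p at or above 5 CPM were Gprc5a, Iyd and Krt7. Iyd encodes a thyroid iodide-recycling enzyme. In B6 mice 0 genes passed (0%) and 777 had an unadjusted p under 0.05 (4.17%). Over the 12376 genes at or above 5 CPM, which share no libraries but are not independent of one another, the differences in the 2 strains had a Pearson r of -0.37 and 38.2% of genes had the same sign. The median of the thymus list, a neighbouring tissue, was 0.58 in 129X1 and -6.33 in B6. That of the cell cycle list, which marks no single tissue, was 0.64 and -1.78. The part of thymus tissue in the strain contrast was not tested.

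The interaction of schedule, late minus early dosing in 129X1 mice, had 0 genes past the test by edgeR (0%), with 97 at an unadjusted p under 0.05 (0.521%), and 0 by DESeq2. With early dosing 0 genes passed (0%) and 471 had an unadjusted p under 0.05 (2.53%). The differences at the 2 schedules had a Pearson r of 0.17 over the same 12376 genes, and 61.7% had the same sign. The medians of 3 lists, late and then early, were 0.23 and 0.86 for fibrillar matrix, 0.24 and 0.57 for modulated smooth muscle and -0.06 and -0.59 for contractile smooth muscle. The differences of Cthrc1 were 1.05 and 2.25, those of Postn 0.61 and 0.95 and those of Spp1 0.13 and 1.89. These values, from 3 of the 39 lists, lay farther from 0 with early dosing, and none of the genes passed the test of the interaction. Other lists went the other way. The medians, late and then early, were -0.14 and -0.06 for endothelium, 0.15 and -0.03 for interferon response and 0.61 and 0.22 for T and NK cells. Mme differed by -0.10 with late and by -0.46 with early dosing.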

How the data were processed

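RNA of ligated left carotid arteries was sequenced as stranded mRNA libraries, per the labels' protocols. Trimmomatic 0.36, STAR 2.5.2b, Subread 1.5.0p3 with featureCounts and the build GRCm38 are named in the submitters' processing notes; the gene annotation used, and whether it was counted by strand, is not given in the sources used here. The authors deposited whole-number counts per gene symbol for 36 libraries, with no normalization.

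In R 4.3.3, edgeR 4.0.16 filtered genes over the 12 groups, scaled by TMM and fitted 12 group means to all 36 libraries (glmQLFit), with Benjamini-Hochberg adjustment over 18628 genes. CPM uses TMM-scaled totals, and a 95% interval uses the fitted error. Alternatives were DESeq2 1.42.0, limma 3.58.1 (voom), other scalings and filters, list scores as covariates and leaving out libraries. The members and lists were chosen with earlier results of these data known. Named genes were Mme, Agtr1a and Npr3, and the 10 smallest p per direction at or above 5 CPM, since none passed. To these were added the 2 smallest p and the 2 highest CPM of each list, and 3 per other comparison. Predicted or unnamed genes were passed over in the rankings per direction and per comparison. Other genes are named for their role, or as stated. The fit was also run on simulated counts drawn independently for each gene. Those counts held no tissue content varying between libraries, so that run cannot show how the fit behaves with such content. Positions came from GENCODE M21. No 2 libraries held identical counts.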

Additional observations from a re-analysis of the deposited data

How the results depend on the processing

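Sacubitril/valsartan minus vehicle had 0 genes called in each alternative run except limma's voom with sample weights, which called 1. Leaving out each of the 6 libraries gave 0 to 0 genes, with 57 to 771 at an unadjusted p under 0.05, and 771 was without sacubitril/valsartan replicate 3. With 6 list scores as covariates 589 genes had an unadjusted p under 0.05, with a smallest adjusted p of 0.079. With every library holding 10 CPM or more of Rag1 left out, 1 library per group was left, assumed to vary like the other groups, and 0 genes were called, with 1606 at an unadjusted p under 0.05 and a smallest adjusted p of 0.060 by edgeR. That setting could not be run against valsartan, which had 0 libraries below 10 CPM. Sacubitril/valsartan minus valsartan gave 1 gene by DESeq2 (Igkv14-100), 2 with 6 list scores (Ighv1-54 and 4930481A15Rik) and 1 by voom, and 0 to 0 with a library left out. The interaction with strain gave 14 by DESeq2, 1603 by voom and 0 to 0 with a library left out; the cause was not tested. The interaction with schedule gave 0 in every alternative, 0 to 0 with a library left out.

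For sacubitril/valsartan minus vehicle, none of 208 named genes was called in 3120 alternative values, and 2742 kept the sign of the difference. Of 585 medians of the 39 lists, 556 moved by less than the spread between libraries and 456 kept their sign. That spread, the SD of the list's mean log2 CPM within the 2 groups, was 3.26 for skeletal muscle and 3.02 for thymus. Large moves of those lists could therefore stay within it. The sign was kept in every alternative by 1 of the 39 lists and by 59 of the 208 named genes. The robust prior, voom and the Rag1 setting were chosen after seeing the data. No paired analysis was possible because the labels give the groups no shared replicate numbers. With 3 libraries per group and this spread of neighbouring tissue, genes with wide intervals are not settled.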

Other observations

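Brown fat and adipocyte genes, which the text above does not describe, were abundant in all 6 libraries. Ucp1, the uncoupling protein of brown fat, was at 3142, 2566 and 3093 CPM with sacubitril/valsartan and at 3068, 2254 and 2438 CPM with vehicle, and Cidea, a lipid droplet protein, was at 1041, 1116 and 852 CPM against 1168, 739 and 822 CPM. The groups of both genes overlapped, and valsartan alone gave 1733, 1352 and 2265 CPM of Ucp1. Of 12 brown fat genes tested 0 passed edgeR's test. The lipogenic enzyme Fasn was at 20023, 5629 and 8290 CPM against 13813, 8041 and 10077 CPM, and the leptin gene Lep at 28.4, 13.8 and 13.8 CPM against 35.9, 32.7 and 18.3 CPM. Sacubitril/valsartan replicate 1, the library with the most Eln and the least skeletal muscle and Mmp12, had the most Fasn of the 6.

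Airway mucin Muc5b was at 25.3 CPM in sacubitril/valsartan replicate 1 and at or below 0.313 CPM in the other 5 libraries. The clock gene Per1, also a glucocorticoid target, was at 121, 102 and 109 CPM against 175, 148 and 105 CPM, and 0 of 20 clock genes passed.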
